A study of Mus musculus with 8 samples.

Results

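The genes described here are S100a8, S100a9, S100a6, S100a13, S100a11, S100a10 and S100a4. They encode small proteins of the S100 family, most of which bind calcium. These proteins act inside cells and some of them, once released, as danger signals (alarmins). The genes were picked by gene symbol, with earlier results of these data known, and they are 7 of the 55414 genes listed for each library. The RNA came from spleen neutrophils of mice that lack the chemokine receptor Cxcr2 in the whole body (Cxcr2-/-, n = 4) and of wild-type mice (WT, n = 4). Both groups were on the FVB background, aged 10 weeks and kept in specific and opportunistic pathogen-free (SOPF) housing, and the Cxcr2-/- line, obtained from a supplier, had been crossed into FVB over many generations. After positive selection for CD11b, neutrophils were sorted as CD45+ CD11b+ Ly6G+ F4/80- cells, and each library of RNA depleted of ribosomal RNA was sequenced and counted on genes. The comparison asks how much RNA of each S100 gene the sorted cells held with and without Cxcr2.

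S100 proteins carry a pair of EF-hands, helix-loop-helix motifs that bind calcium in most of these proteins. Most of them work as dimers that open a binding face for partner proteins when calcium enters. S100A8 and S100A9 join into calprotectin, among the most abundant cytosolic proteins of neutrophils, which binds zinc and manganese and so withholds them from microbes, and which signals through TLR4 and the receptor RAGE once it is outside the cell. S100A6, S100A10, S100A11 and S100A4 bind annexins or myosin at membranes and the cytoskeleton, and S100A13 takes part in the release of proteins that have no signal peptide.

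All 7 genes lie on mouse chromosome 3 (GRCm38), among 14 S100 genes of the family on that chromosome that were examined. The first group, from S100a1 to S100a9, spans 184.688 kb and holds S100a13, S100a4, S100a6, S100a8 and S100a9, and S100a11 lies a further 2.82 Mb along, 28.8 kb before S100a10. RefSeq promoter windows (GRCm38.p6, from 250 bases before the annotated start to 50 bases after it, read in the direction of transcription) were matched for 6 of the 7 genes, all but S100a10. They were searched on both strands for the TATA box TATAAA, the C/EBP letters TTGCNNAA, the PU.1 core GAGGAA, the AP-1 letters TGANTCA and the GC box GGGCGG. The windows of S100a8 (chr3:90668821-90669120, plus strand) and S100a9 (chr3:90695672-90695971, minus strand) are shown because these are the most abundant S100 RNAs of the cells. That of S100a6 (chr3:90612644-90612943, plus strand) is shown because its RNA rose between the groups as theirs did. That of S100a11 (chr3:93520246-93520545, plus strand) is shown because its RNA did not pass the test. That of S100a13 (chr3:90514185-90514484, plus strand) is shown because most of it is shared with the neighbouring gene S100a1. Capitals mark matched motif letters, except in S100a13, where they mark the 204 bases that also lie in the S100a1 window.

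S100a8: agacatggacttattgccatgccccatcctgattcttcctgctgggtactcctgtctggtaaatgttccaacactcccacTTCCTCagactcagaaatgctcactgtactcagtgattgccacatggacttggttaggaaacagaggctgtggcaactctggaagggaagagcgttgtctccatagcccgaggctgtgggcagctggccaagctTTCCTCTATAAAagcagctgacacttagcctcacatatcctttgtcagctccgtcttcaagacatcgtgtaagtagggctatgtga
S100a9: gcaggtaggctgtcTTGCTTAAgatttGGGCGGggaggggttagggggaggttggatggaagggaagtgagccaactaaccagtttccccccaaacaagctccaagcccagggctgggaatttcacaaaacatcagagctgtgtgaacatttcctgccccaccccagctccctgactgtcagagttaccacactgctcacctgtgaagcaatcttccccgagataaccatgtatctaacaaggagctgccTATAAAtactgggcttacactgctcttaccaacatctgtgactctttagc
S100a6: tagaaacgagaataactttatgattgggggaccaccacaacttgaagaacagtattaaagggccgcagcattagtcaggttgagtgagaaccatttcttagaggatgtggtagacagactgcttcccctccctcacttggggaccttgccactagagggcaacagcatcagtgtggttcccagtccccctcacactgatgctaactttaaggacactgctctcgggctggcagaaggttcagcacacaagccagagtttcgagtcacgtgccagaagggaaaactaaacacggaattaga
S100a11: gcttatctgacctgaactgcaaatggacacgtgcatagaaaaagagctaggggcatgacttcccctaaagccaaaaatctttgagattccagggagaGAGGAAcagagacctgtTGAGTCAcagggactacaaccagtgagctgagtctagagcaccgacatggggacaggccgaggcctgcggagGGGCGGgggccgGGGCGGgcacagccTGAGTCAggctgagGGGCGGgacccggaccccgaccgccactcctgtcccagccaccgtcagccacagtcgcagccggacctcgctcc
S100a13: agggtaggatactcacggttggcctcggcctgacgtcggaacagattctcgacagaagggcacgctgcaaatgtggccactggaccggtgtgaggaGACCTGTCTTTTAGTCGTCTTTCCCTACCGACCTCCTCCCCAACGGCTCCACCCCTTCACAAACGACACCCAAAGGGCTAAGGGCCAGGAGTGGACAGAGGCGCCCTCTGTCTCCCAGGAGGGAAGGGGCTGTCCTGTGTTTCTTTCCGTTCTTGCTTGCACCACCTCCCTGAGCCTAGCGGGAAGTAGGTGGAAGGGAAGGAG

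The S100a8 window holds TATAAA 30 bases before the annotated start and the PU.1 core on the opposite strand at positions -170 and -36, counted from the start as position 1. The GENCODE gene model of S100a8 begins at 90668978, upstream of the RefSeq start at 90669071. In S100a9 the TATAAA letters begin at position 1 of the RefSeq start, with TTGCNNAA at -236 and GGGCGG at -223, and in S100a11 there are GGGCGG letters at -64, -52 and -24 and TGANTCA letters at -136 and -38, with the PU.1 core at -153. The S100a4 window, which is not shown, holds TATAAA at -31 and the PU.1 core on the opposite strand at position 20. No searched letters were found in the S100a6 and S100a13 windows. Of 32851 mouse promoter windows of the same length, 13.6% held TATAAA, 10.8% TTGCNNAA, 28.3% GAGGAA, 7.81% TGANTCA and 35.7% GGGCGG.

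The total of the counts on genes was between 34220182 and 46233555 per WT library and between 37549648 and 43789253 per Cxcr2-/- library. Pairs that met no gene were 31.4% to 41.5% of all counted pairs in WT and 26.7% to 31.9% in Cxcr2-/- libraries. Cxcr2 itself fell from 1954 ± 221 to 17.0 ± 3.46 CPM (mean ± SD, n = 4 each), in the direction of every label. CPM (counts per M) scale the counts of a gene to a common TMM-normalized library size, and each log2 fold change sets Cxcr2-/- over WT, from edgeR's quasi-likelihood test, with p-values adjusted by Benjamini-Hochberg over the 16778 genes tested. Summed CPM of 8 neutrophil markers were 21620 to 26652 in WT and 35047 to 47461 in Cxcr2-/- libraries. Of these 8 markers, 6 were higher with an adjusted p under 0.05 (edgeR), among them the secondary granule genes Ngp and Camp. Over all genes tested, 23.7% were higher. Ngp was at 7231 to 9215 CPM in WT and at 17231 to 24245 CPM in Cxcr2-/- libraries. Camp was at 2065 to 2901 CPM in WT and at 4753 to 7455 CPM in Cxcr2-/- libraries. These 2 genes weigh heavily in the sums, so the sums are no measure of how pure the sorted cells were. Csf3r was lower, at 6500 to 7464 CPM in WT against 3162 to 3510 CPM in Cxcr2-/- libraries, and Itgam did not pass. Sums of 10 monocyte and macrophage markers were 774 to 907 and 919 to 1175 CPM. They were at most 138 for any of the lists of B cell, T and NK cell, dendritic cell, eosinophil and basophil, erythroid and platelet markers. In sorted bulk cells, a changed share of a cell stage or type and a changed amount of RNA per cell cannot be told apart.

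Of the 7 S100 genes, 5 were higher in Cxcr2-/- neutrophils with an adjusted p under 0.05 (S100a8, S100a9, S100a6, S100a13 and S100a4), none was lower, and S100a10 and S100a11 did not pass. The same 5 genes changed by at least 1.5-fold. Over all genes tested, 44.7% passed that adjusted p, with 23.7% higher and 21% lower, and 15.7% were higher with the 1.5-fold limit as well. The median log2 fold change was 1.32 over the 7 genes and 0.01 over all genes tested. The groups of 4 libraries did not overlap for 4 of the 7 genes, where 41.6% of all genes tested had no overlap. The plot of all 7 genes by library shows the patterns described in turn below.

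**Figure D1:**
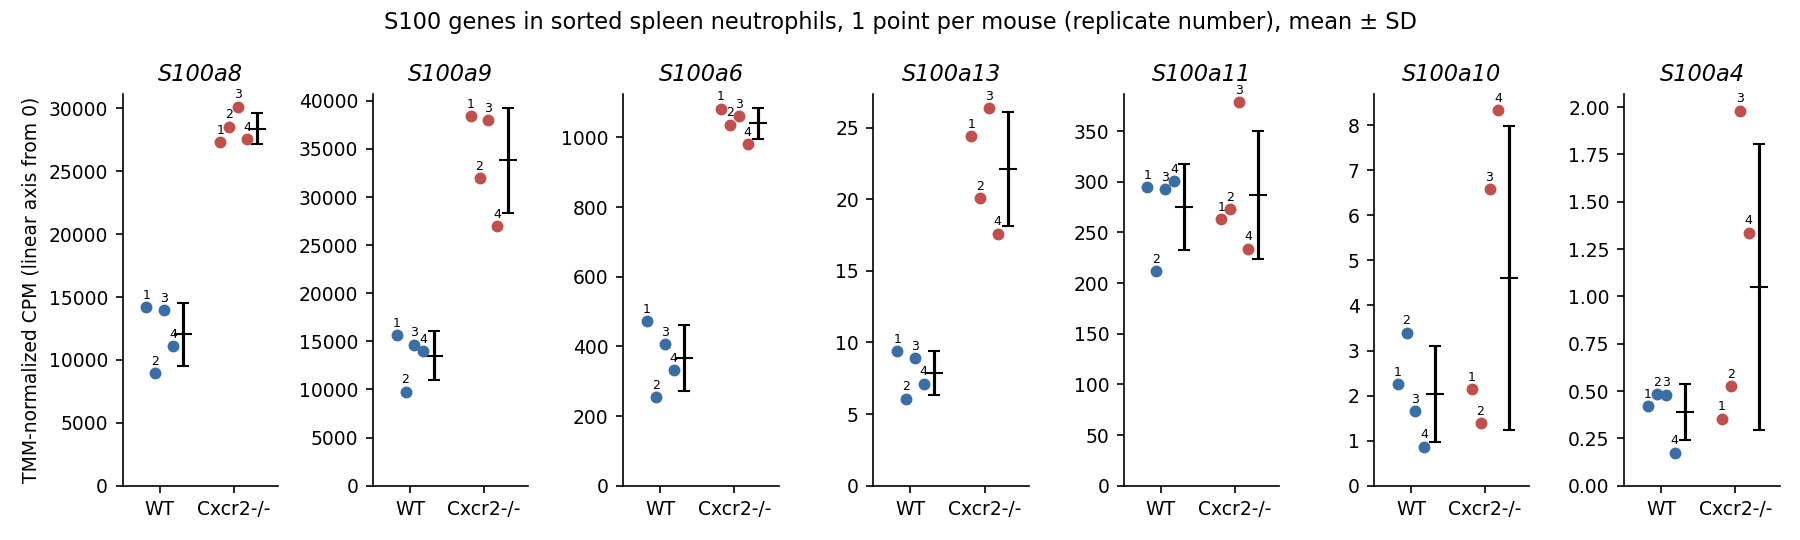
TMM-normalized CPM (y axis, linear from 0, its own scale for each gene) of the 7 S100 genes, 1 point per mouse with its replicate number, WT in blue and Cxcr2-/- in red, with the mean ± SD of each group in black. The groups are apart for S100a8, S100a9, S100a6 and S100a13, whereas they overlap for S100a11, and for S100a10 and S100a4 the Cxcr2-/- replicates 3 and 4 are high and replicates 1 and 2 lie in or close to the WT range.

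S100a8 and S100a9, the subunits of calprotectin, carried nearly all of the S100 counts and rose together. S100a8 (ENSMUSG00000056054.10, chromosome 3 from 90668978 to 90670035, plus strand) was at 14189, 8949, 13953 and 11091 CPM in WT replicates 1 to 4 and at 27338, 28544, 30128 and 27582 CPM in Cxcr2-/- replicates 1 to 4. WT replicate 2 was the lowest of all, and the lowest Cxcr2-/- library was well above the highest WT library. The means were 12045 ± 2499 and 28398 ± 1266 CPM, a log2 fold change of 1.24 (SE 0.16, 95% interval 0.88 to 1.59, adjusted p = 6.67e-05, edgeR). S100a9 (ENSMUSG00000056071.13, from 90692632 to 90695721, minus strand) was at 15641, 9782, 14660 and 13998 CPM in WT and at 38421, 31991, 37999 and 26954 CPM in Cxcr2-/- neutrophils. Here too WT replicate 2 was the lowest and the groups did not overlap, but the Cxcr2-/- libraries differed more from each other than for S100a8. The means were 13520 ± 2582 and 33841 ± 5450 CPM, a log2 fold change of 1.32 (SE 0.18, 95% interval 0.93 to 1.72, adjusted p = 8.51e-05, edgeR). Secondary granule genes, which neutrophil precursors transcribe before their final maturation (Ltf, Camp, Ngp, Lcn2, Chil3), moved with the same groups. All 5 were higher, where 23.7% of all genes tested were higher. They had a median log2 fold change of 1.28 and a summed level of 21873 to 26652 CPM in WT against 50977 to 73665 CPM in Cxcr2-/- libraries. All 4 primary granule genes tested (Mpo, Elane, Prtn3, Ctsg) were higher too, with a median log2 fold change of 5.01 and summed levels of 2.40 to 12.5 CPM in WT against 53.3 to 351 CPM in Cxcr2-/- libraries. All 3 gelatinase granule genes tested (Mmp8, Mmp9, Mmp25) were also higher, with a median log2 fold change of 0.64. Their summed levels were 4203 to 5303 CPM in WT against 6203 to 8695 CPM in Cxcr2-/- libraries. The part of these granule genes in the S100 result was not tested.

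As a share of all counts on genes, which uses no normalization between libraries, S100a8 took 1.41%, 0.964%, 1.46% and 1.12% of the WT libraries and 2.47%, 2.75%, 2.97% and 2.84% of the Cxcr2-/- libraries. S100a9 took 1.56%, 1.05%, 1.53% and 1.42% of the WT and 3.47%, 3.08%, 3.74% and 2.77% of the Cxcr2-/- libraries. For S100a8 in WT replicate 2 the exact Clopper-Pearson 95% interval was 0.961% to 0.967% (counting error only), far narrower than the spread between libraries. Together the 2 genes took 2.97%, 2.02%, 2.99% and 2.54% of the WT libraries (2.63% ± 0.458) and 5.94%, 5.83%, 6.71% and 5.61% of the Cxcr2-/- libraries (6.02% ± 0.478). All 7 genes together took 2.70% ± 0.470 and 6.16% ± 0.487. When the test was run with total-count scaling, which is the test of these shares, the log2 fold changes were 1.15 for S100a8 (adjusted p = 4.51e-05, edgeR) and 1.23 for S100a9 (adjusted p = 3.60e-05, edgeR).

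**Figure D2:**
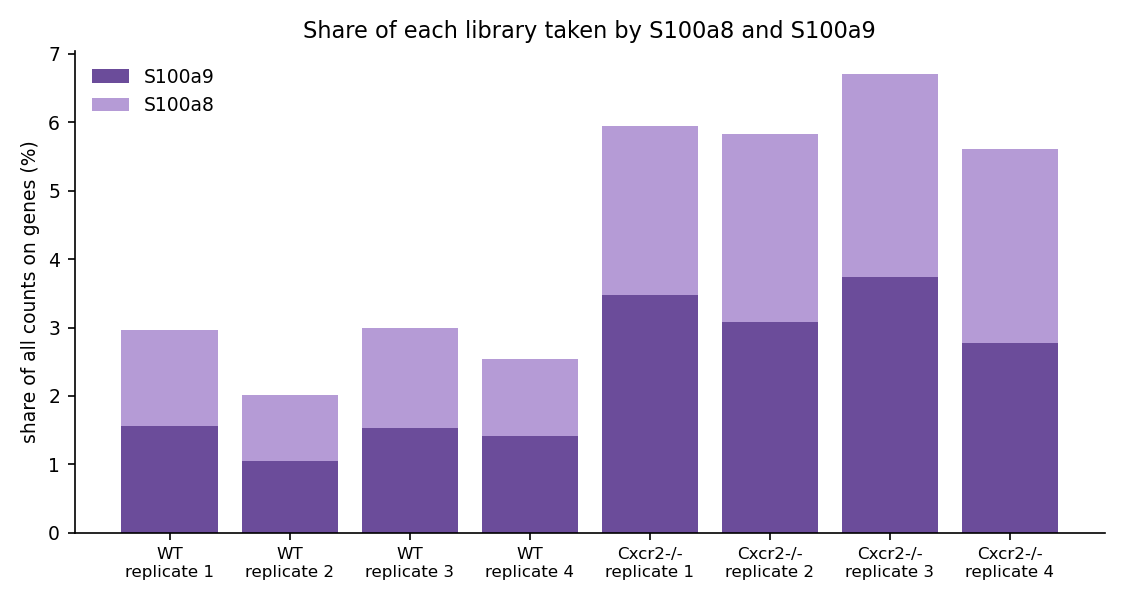
Share of all counts on genes (y axis, percent, from 0) taken by S100a9 (dark) and S100a8 (light), stacked, in each of the 4 WT and 4 Cxcr2-/- libraries. The WT bars end between 2.02% and 2.99% and the Cxcr2-/- bars between 5.61% and 6.71%, with WT replicate 2 the lowest.

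Among all genes of a library by count, S100a8 was at rank 3 or 4 and S100a9 at rank 2 or 3 in WT libraries, and in every Cxcr2-/- library they held ranks 1 and 2. They made up 21.4% to 27.3% of the counts on the 10 most counted genes of a WT library and 32.5% to 35% of those of a Cxcr2-/- library. The 10 most counted genes held 9.45% to 11.6% of a WT library and 17.0% to 19.2% of a Cxcr2-/- library, and the rest of these genes without S100a8 and S100a9 took 7.42% to 8.58% and 11.2% to 12.5%. Library sizes were also taken from total counts without the 10 most counted genes of all libraries together, S100a8 and S100a9 among them. With these sizes, the log2 fold change of S100a8 was 1.28 (adjusted p = 2.57e-05) and that of S100a9 1.36 (adjusted p = 2.15e-05, both edgeR).

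The balance between the calprotectin subunits was given by the S100a8 count divided by the S100a9 count, a ratio within a library that does not depend on depth. It was 0.907, 0.915, 0.952 and 0.792 in WT and 0.712, 0.892, 0.793 and 1.02 in Cxcr2-/- libraries. The ranges overlap throughout, and the Cxcr2-/- libraries hold both the lowest and the highest ratio. The means were 0.892 ± 0.0689 and 0.855 ± 0.134, a difference of -0.07 on the log2 scale that did not exceed the spread between mice (p = 0.6 by a two-sided exact permutation test of 4 against 4 libraries, where the smallest p is 0.0286).

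S100a6 (calcyclin), which binds annexins and the calcyclin-binding protein encoded by Cacybp, rose between the groups as S100a8 did. S100a6 (ENSMUSG00000001025.9, from 90612882 to 90624181, plus strand) was at 472, 255, 406 and 332 CPM in WT and at 1083, 1037, 1062 and 981 CPM in Cxcr2-/- neutrophils. The Cxcr2-/- libraries were close to each other and all were more than the highest WT library, and WT replicate 2 was again the lowest. Within the Cxcr2-/- group the order differed from that of S100a8, with S100a6 highest in replicate 1, where S100a8 was lowest. The means were 366 ± 93.7 and 1041 ± 44.0 CPM, a log2 fold change of 1.51 (SE 0.16, 95% interval 1.16 to 1.86, adjusted p = 1.27e-05, edgeR). By count, S100a6 stood between ranks 372 and 736 in WT and between ranks 87 and 103 in Cxcr2-/- libraries.

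S100a13, which is known for copper-dependent export of growth factors and cytokines that lack a signal peptide, rose by about as much at a far lower level. S100a13 (ENSMUSG00000042312.11, from 90514435 to 90524581, plus strand) was at 9.41, 6.08, 8.89 and 7.11 CPM in WT and at 24.4, 20.1, 26.4 and 17.6 CPM in Cxcr2-/- neutrophils. As for S100a9, replicates 1 and 3 were the highest of the Cxcr2-/- libraries and replicate 4 the lowest. The means were 7.87 ± 1.55 and 22.1 ± 4.0 CPM, a log2 fold change of 1.49 (SE 0.17, 95% interval 1.13 to 1.85, adjusted p = 1.85e-05, edgeR). S100a1, a member of the family known from heart muscle, is transcribed away from S100a13, with RefSeq starts 105 bases apart, which is why their promoter windows share the 204 bases in capitals above. Its counts were 65, 50, 57 and 36 in WT and 245, 225, 347 and 313 in Cxcr2-/- libraries. S100a1 rose from 1.25 ± 0.267 to 7.21 ± 1.26 CPM without overlap, a log2 fold change of 2.53 (SE 0.21, 95% interval 2.07 to 2.98, adjusted p = 1.72e-06, edgeR), the largest of the S100 genes tested.

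S100a11 (calgizzarin), a partner of annexin A1, is an S100 gene of middling level for which no change was found. S100a11 (ENSMUSG00000027907.5, from 93520488 to 93526287, plus strand) was at 295, 212, 292 and 301 CPM in WT and at 263, 273, 379 and 234 CPM in Cxcr2-/- neutrophils. The groups overlap, with 1 low WT library (replicate 2) and 1 high Cxcr2-/- library (replicate 3). The means were 275 ± 42.1 and 287 ± 63.3 CPM, a log2 fold change of 0.06 (SE 0.15, adjusted p = 0.770, edgeR), and the 95% interval of -0.27 to 0.40 lies below the lower bound of 0.88 for S100a8, the lowest bound of the 4 genes without overlap. The sign of the S100a11 value depends on the scaling, being -0.06 with upper-quartile normalization and -0.02 with total-count scaling.

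S100a10 (p11), which forms a complex with annexin A2 at the plasma membrane, was at a low level. S100a10 (ENSMUSG00000041959.15, from 93555080 to 93564643, plus strand) had 102, 169, 62 and 30 counts in WT and 85, 50, 259 and 343 counts in Cxcr2-/- libraries, or 2.25, 3.39, 1.66 and 0.867 CPM against 2.15, 1.38, 6.58 and 8.33 CPM. Only Cxcr2-/- replicates 3 and 4 lie above the WT range, and replicates 1 and 2 lie inside it. The means were 2.04 ± 1.06 and 4.61 ± 3.38 CPM, a log2 fold change of 1.16 (SE 0.52, 95% interval 0.04 to 2.29) that did not pass (adjusted p = 0.0873, edgeR).

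S100a4 (metastasin), a partner of non-muscle myosin known from monocytes, lymphocytes and fibroblasts, had the fewest counts of the 7 genes. S100a4 (ENSMUSG00000001020.9, from 90603771 to 90606045, plus strand) had 19, 24, 18 and 6 counts in WT and 14, 19, 78 and 55 counts in Cxcr2-/- libraries, or 0.420, 0.482, 0.481 and 0.173 CPM against 0.354, 0.525, 1.98 and 1.34 CPM. As for S100a10, replicates 3 and 4 of the Cxcr2-/- group are high and the other libraries overlap. The means were 0.389 ± 0.147 and 1.05 ± 0.755 CPM, a log2 fold change of 1.41 (SE 0.52, 95% interval 0.28 to 2.54) that passed narrowly (adjusted p = 0.0430, edgeR). The call was lost when any WT library was left out (adjusted p between 0.0664 and 0.104), and the value fell to 0.91 (adjusted p = 0.183) without Cxcr2-/- replicate 3 and to 1.26 (adjusted p = 0.0927) without Cxcr2-/- replicate 4. S100a4 shares 302 of its 584 exon bases on the same strand with the gene model Gm42674, which had 0 counts in every library. Pairs that meet both genes may have been left out as ambiguous, so the level of S100a4 and its rank among the 7 genes are uncertain.

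The same Cxcr2-/- libraries, replicates 3 and 4, were high for other genes. The monocyte gene Ccr2 was at 6.83, 8.94, 9.05 and 4.34 CPM in WT and at 7.48, 8.85, 34.4 and 45.7 CPM in Cxcr2-/- neutrophils, and the fibronectin gene Fn1 was at 22.1, 29.2, 29.2 and 15.6 CPM in WT and at 34.5, 24.4, 128 and 143 CPM in Cxcr2-/- neutrophils. The primary granule gene Mpo was at 1.5, 2.35, 6.25 and 1.13 CPM in WT and at 19.0, 20.2, 81.1 and 146 CPM in Cxcr2-/- neutrophils, so that for Mpo replicates 1 and 2 also lay above the WT values. The eosinophil genes Epx and Prg2 and the erythroid gene Hba-a1 also had their highest levels in Cxcr2-/- replicates 3 and 4, whereas the eosinophil gene Siglecf did not. Of the 10 monocyte and macrophage markers, 3 were higher (Ccr2, Ly6c2, Fn1), 2 were lower (Csf1r, Adgre1) and 5 did not pass, and none of them was at 0 in a group. The share that passed is near the 44.7% of all genes tested. Within this list, Ly6c2 was at 663, 633, 639 and 572 CPM in Cxcr2-/- replicates 1 to 4. Csf1r and Adgre1 lay below every WT library in all Cxcr2-/- libraries. With the mean log2 (CPM + 1) of this list as a covariate, log2 fold changes were 0.82 for S100a10 (adjusted p = 0.00284), 1.12 for S100a4 (adjusted p = 0.0128), 1.24 for S100a8 (adjusted p = 1.64e-05), 1.34 for S100a9 (adjusted p = 1.46e-05), 1.51 for S100a6 (adjusted p = 3.47e-06) and 1.49 for S100a13 (adjusted p = 6.71e-06) by edgeR.

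**Figure D3:**
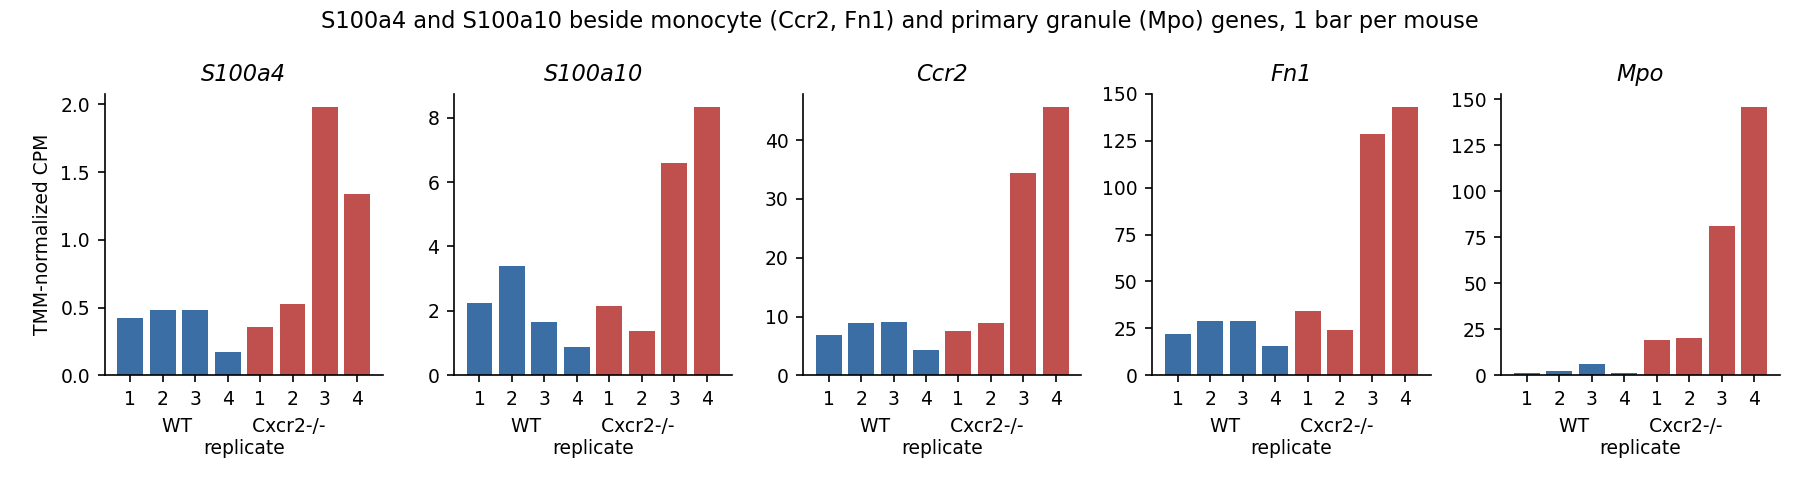
TMM-normalized CPM (y axis, linear from 0, its own scale for each gene) of S100a4, S100a10, the monocyte genes Ccr2 and Fn1 and the primary granule gene Mpo, 1 bar per mouse, WT in blue and Cxcr2-/- in red, with the replicate number on the x axis. Replicates 3 and 4 of the Cxcr2-/- group have the highest bars for all 5 genes, and for Ccr2 they reach 34.4 and 45.7 CPM where no other library is above 9.05 CPM.

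Compared between genes per kilobase of exon, S100a9 had the highest mean level and S100a4 the lowest in both groups, and S100a11 and S100a6 changed places. The length was that of all annotated exons of a gene merged: 1367 bases for S100a6, 511 for S100a11, 694 for S100a8 and 522 for S100a9. In CPM without this division, the mean of S100a6 was above that of S100a11 in both groups. The changed places therefore rest on these lengths, and the lengths of the transcripts in the cells were not measured. The last place of S100a4 is uncertain too, because 302 of its 584 exon bases are shared with Gm42674 and may not have been counted. In WT neutrophils, S100a9 was at 25901 ± 4946, S100a8 at 17357 ± 3600, S100a11 at 538 ± 82.4, S100a6 at 268 ± 68.6, S100a13 at 11 ± 2.16, S100a10 at 1.69 ± 0.879 and S100a4 at 0.666 ± 0.251 CPM per kb (n = 4). In Cxcr2-/- neutrophils, S100a9 was at 64830 ± 10441, S100a8 at 40920 ± 1824, S100a6 at 761 ± 32.2, S100a11 at 562 ± 124, S100a13 at 30.9 ± 5.59, S100a10 at 3.80 ± 2.79 and S100a4 at 1.80 ± 1.29 CPM per kb. The ranges of mean ± SD overlapped for S100a10 and S100a4 in both groups and touched for S100a9 and S100a8 in WT, and they were apart for the other neighbours in each order.

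Across the 8 libraries, the S100 genes fell into sets by their log2 (CPM + 1) values, given as a description in which the libraries, depth and genotype are shared. Pearson's r was 0.996 between S100a8 and S100a6, 0.992 between S100a9 and S100a13, 0.975 between S100a8 and S100a9 and 0.884 between S100a4 and S100a10, against 0.298 between S100a8 and S100a11. Among the 4220 genes whose average log2 CPM reached 5, the 3 most like S100a8 were Tspo (r = 0.992), Tpi1 (0.992) and Ly6c2 (0.990), and the 3 most like S100a6 were Tspo (0.996), 1810037I17Rik (0.995) and Tpi1 (0.995). Those most like S100a9 were Prdx5 (0.998), Ap2s1 (0.997) and Sem1 (0.997), and those most like S100a13 were Bcl2l1 (0.999), Eif5a (0.998) and the pseudogene Gm13394 (0.995). After the group means were taken out, r was 0.914 between S100a8 and Tspo, 0.980 between S100a9 and Prdx5 and 0.987 between S100a13 and Bcl2l1. These pairs were picked for a high r in the same libraries, so these values too are only a description. S100a4 was most like mt-Nd1 (0.989), Lrp1 (0.963) and Gusb (0.951), S100a10 most like Rpl3 (0.979) and Ctss (0.946), and S100a11 most like Lst1 (0.882), Anp32a (0.882) and Gltp (0.846).

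Of the other S100 genes, 10 of 11 were listed and 5 had counts enough to be tested. S100a1 was higher, as given above, and S100a2, S100a3, S100a7a and S100g did not pass. Of all genes tested, 23.7% were higher and 44.7% passed, so that 1 higher of 5 is near the share of all genes. S100a7a, the mouse relative of psoriasin, was at 3.0 ± 0.532 CPM in WT against 2.70 ± 0.574 CPM in Cxcr2-/- neutrophils (log2 fold change -0.15, 95% interval -0.62 to 0.31, adjusted p = 0.591, edgeR). It lies between S100a6 and S100a8 on the chromosome, both of which were higher. S100a5, S100a14, S100a16 and S100b had at most 18 counts in any library and were not tested, and S100z had 0 counts in every library, which allows up to 3 counts of each total. The plot of fold changes along the chromosome shows all S100 genes tested in their genomic order.

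**Figure D4:**
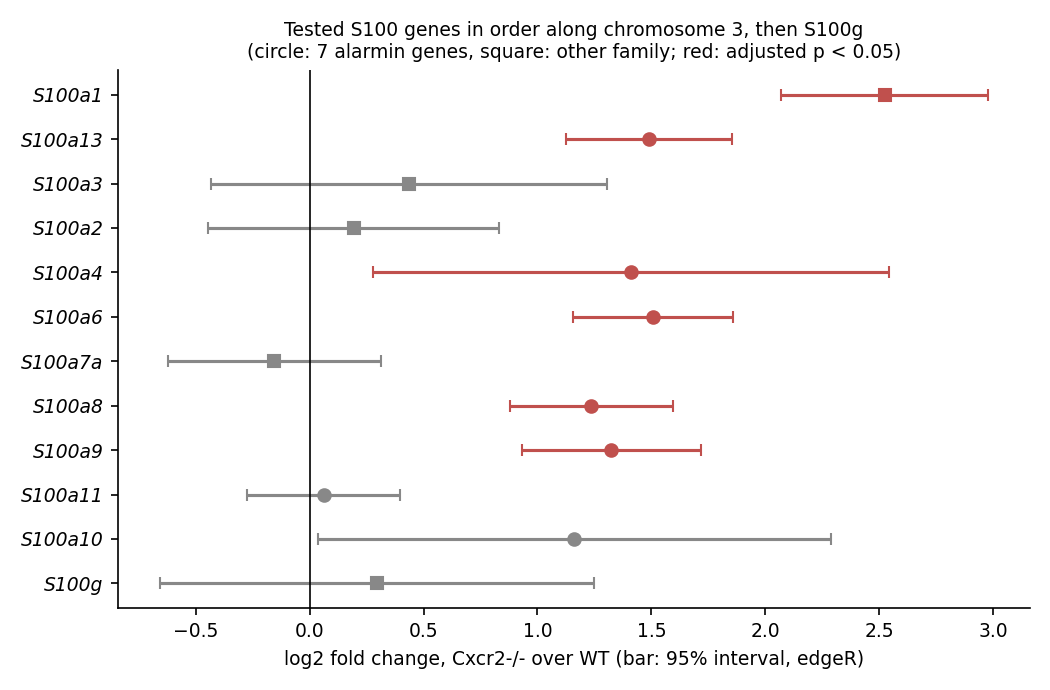
Log2 fold change, Cxcr2-/- over WT (x axis), of the 12 S100 genes tested, with 95% intervals from edgeR. The genes run from top to bottom in their order along chromosome 3, and then S100g of chromosome X. Circles mark the 7 genes described here, squares the others and red an adjusted p under 0.05. S100a1 is the furthest right at 2.53, S100a13, S100a6, S100a9 and S100a8 lie between 1.24 and 1.51, and the intervals of S100a4 and S100a10 are wide.

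Receptors receive S100 proteins at the cell surface. Of 10 receptor genes, 1 was higher, 4 were lower and 5 did not pass, with a median log2 fold change of -0.26, and the share that passed is near the 44.7% of all genes tested. Tlr4, the signalling receptor of calprotectin, was at 140 ± 7.43 CPM in WT against 144 ± 25.3 CPM in Cxcr2-/- neutrophils (log2 fold change 0.04, 95% interval -0.21 to 0.30, adjusted p = 0.792, edgeR), and Ager, which encodes RAGE, was at 16.1 ± 1.96 and 13.8 ± 4.55 CPM (log2 fold change -0.23, 95% interval -0.65 to 0.20, adjusted p = 0.371, edgeR). Cd14, the co-receptor of TLR4, fell from 714 ± 33.6 to 369 ± 105 CPM (log2 fold change -0.95, adjusted p = 6.71e-04, edgeR). Alcam, an adhesion molecule that also binds S100A8 and S100A9, fell from 159 ± 8.0 to 53.8 ± 3.76 CPM (log2 fold change -1.57, adjusted p = 1.12e-07, edgeR). Bsg, the gene of the S100A9 receptor basigin, was the receptor gene that rose, from 33.7 ± 2.88 to 50.7 ± 4.90 CPM (log2 fold change 0.59, adjusted p = 3.89e-04, edgeR). Cd33 and Nptn were also lower, with log2 fold changes of -0.68 and -0.55.

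Of 9 genes for intracellular partners, 5 were higher (Anxa1, Anxa5, Anxa11, Myh9, Sugt1), 1 was lower (Anxa6) and 3 did not pass (Anxa2, Ahnak, Cacybp), with a median log2 fold change of 0.49, where 23.7% of all genes tested were higher and 44.7% passed. With the covariate for pairs outside genes, 2 of the receptor, partner and regulator genes together were higher, against 7 without it. Anxa1, the annexin A1 that binds S100A11 and limits neutrophil recruitment, rose from 3499 ± 447 to 7315 ± 993 CPM (log2 fold change 1.06, 95% interval 0.76 to 1.37, adjusted p = 6.67e-05, edgeR), while S100a11 itself was at 275 ± 42.1 and 287 ± 63.3 CPM. Anxa2, the partner of S100A10, was at 934 ± 152 and 1063 ± 132 CPM (log2 fold change 0.19, 95% interval -0.11 to 0.48, adjusted p = 0.288, edgeR). Per kilobase of exon, Anxa2 was at 250.3 CPM in WT against 285 CPM in Cxcr2-/- neutrophils, against 1.69 and 3.80 CPM for S100a10. Myh9, the heavy chain of non-muscle myosin that S100A4 binds, passed narrowly at 3658 ± 543 and 5142 ± 1323 CPM (log2 fold change 0.49, adjusted p = 0.0415, edgeR) with overlap between the groups. Ahnak, a scaffold of the S100A10 and annexin A2 complex, was at 95.4, 137, 88.4 and 97.1 CPM in the WT and at 51.0, 55.1, 138 and 169 CPM in the Cxcr2-/- libraries. Its Cxcr2-/- replicates 1 and 2 lay below every WT library, replicate 3 was level with the highest WT library and replicate 4 lay above it, and its log2 fold change was -0.02 (adjusted p = 0.965, edgeR).

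Of 7 transcription factors known to act at the S100a8 and S100a9 genes, 1 was higher, 2 were lower and 4 did not pass, with a median log2 fold change of -0.01, and here too the share that passed is near the 44.7% of all genes tested. Cebpe, the C/EBP factor of late granulocyte differentiation, rose from 82.7 ± 6.09 to 186 ± 48.4 CPM (log2 fold change 1.17, 95% interval 0.83 to 1.5, adjusted p = 6.58e-05, edgeR). Cebpb, the C/EBP factor of emergency granulopoiesis and inflammation, fell from 370 ± 17.4 to 183 ± 59.2 CPM (log2 fold change -1.01, adjusted p = 6.48e-04, edgeR), and Cebpa, which acts early in the lineage, fell from 26.5 ± 3.52 to 17.9 ± 1.40 CPM (log2 fold change -0.57, adjusted p = 0.00140, edgeR). Spi1, which encodes PU.1, was at 709 ± 71.0 and 703 ± 97.0 CPM (log2 fold change -0.01, 95% interval -0.27 to 0.25, adjusted p = 0.944, edgeR), and Cebpd, Stat3 and Hif1a did not pass either.

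**Figure D5:**
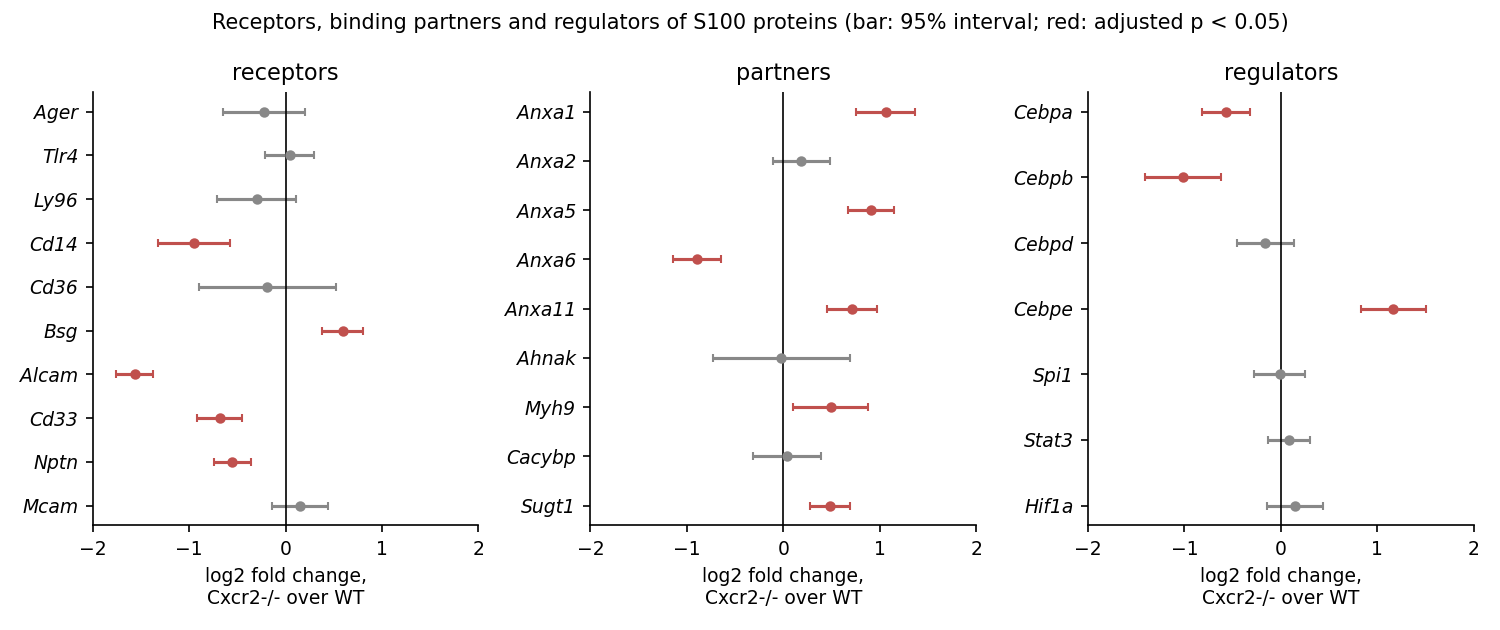
Log2 fold change, Cxcr2-/- over WT (x axis, the same scale in each panel), of the receptor, partner and regulator genes of S100 proteins, with 95% intervals from edgeR and red for an adjusted p under 0.05. Among the receptors Alcam is the furthest left at -1.57, and Anxa1 and Cebpe lead the partners and regulators at 1.06 and 1.17.

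Other EF-hand genes encode calcium sensors and calcium-dependent enzymes. Of 18 such genes 13 were higher, 1 was lower (Calm2) and 4 did not pass (Lcp1, Pdcd6, Cib1, Chp1), with a median log2 fold change of 0.47, and 6 of the 13 rose by at least 1.5-fold, where 23.7% of all genes tested were higher. With the covariate for pairs outside genes 3 of the 18 were higher. Gca (grancalcin), a penta-EF-hand protein of neutrophil granules, rose from 90.1 ± 4.50 to 208 ± 17.6 CPM (log2 fold change 1.21, adjusted p = 8.96e-07, edgeR), Sri (sorcin) from 151 ± 16.8 to 322 ± 23.2 CPM (log2 fold change 1.09, adjusted p = 4.82e-06, edgeR) and Capns1, the small calpain subunit, from 103 ± 10.2 to 207 ± 20.4 CPM (log2 fold change 1.0, adjusted p = 1.05e-05, edgeR).

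S100a8, S100a9, S100a6 and S100a13 were past an adjusted p of 0.05 under each of the 18 alternative settings run. Their log2 fold changes were lowest, at 1.06, 1.0, 1.15 and 1.15, with the percentage of pairs outside genes as a covariate (adjusted p from 0.00832 to 0.0324, edgeR), a measure that was lower in most Cxcr2-/- than WT libraries. Without WT replicate 2, the lowest library for each of these 4 genes, the log2 fold changes were 1.10 for S100a8, 1.17 for S100a9, 1.34 for S100a6 and 1.36 for S100a13. Upper-quartile normalization moved the median log2 fold change of all genes from 0.01 to -0.11 and the share of higher among the called genes from 50% to 38.0%, and under it S100a8 had a log2 fold change of 1.12, S100a9 of 1.20, S100a6 of 1.39 and S100a13 of 1.37.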

How the data were processed

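Neutrophil RNA of 4 WT and 4 Cxcr2-/- spleens was measured, with 1 mouse behind each library. From RNA depleted of ribosomal RNA, the authors aligned read pairs to mm10 with STAR and counted them with HTSeq, and the deposited values are raw counts per Ensembl gene. Tool versions, the annotation release and the strand setting of the counting are not given in the sources used here, and levels of overlapping genes are uncertain. Groups and replicate numbers came from the labels. Symbols, positions and exon lengths came from GENCODE M21 (GRCm38), which holds 52081 of the 55414 listed genes; the genes that M21 lacks hold 1.43% of the counts. Promoter windows came from RefSeq (GRCm38.p6).

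The 7 genes, the gene lists and the rule for named genes (the 7 genes, list members, Cxcr2, and the 3 genes most correlated with each) were chosen with earlier results of these data known, and S100pbp was chosen after its values were seen. Some genes that fall under this rule are not reported here. Counts were tested in R 4.3.3 with edgeR 4.0.16 (glmQLFit and glmQLFTest, TMM, filterByExpr, Benjamini-Hochberg over 16778 genes). Genes passed with an adjusted p under 0.05, and the called genes of the whole table also changed by at least 1.5-fold, the thresholds of the study. Exact 95% intervals of shares cover counting error only. The common biological coefficient of variation was 0.202. The replicates of each group were distinct libraries (chi-square per gene of at least 23.9 for any pair). On simulated counts of this comparison (16398 genes, 200 changed) the edgeR steps recovered 81% of genes changed 2-fold and 99% of genes changed 4-fold, and called 15 unchanged genes. The changed genes were drawn from genes with a higher mean count than S100a4, so these rates do not describe S100a4. They were also far fewer than the 7495 genes that passed the adjusted p in the data. Alternatives were DESeq2 1.42.0, RLE and upper-quartile normalization, total-count scaling, total counts without the 10 most counted genes, no filter, a minimum of 10 counts per library, a block for the replicate number, covariates for monocyte markers and for pairs outside genes, and each library left out.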

Additional observations from a re-analysis of the deposited data

Results flagged for a closer look

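Only S100a11 in WT was singled out: replicate 2 was at 212 CPM, far from the other 3 WT libraries, whose values lay between 292 and 301 CPM. The gap to the nearest library was 0.908 of the range of the group. Of 16 groups of 4 libraries looked at in this way, chance is expected to give such a library in about 1 of 20. Without this library the log2 fold change of S100a11 was -0.07 (adjusted p = 0.756, edgeR), and the call did not change.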

How the results depend on the processing

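No called value changed direction under any alternative run. Among single values and counts that answer a comparison, 259 results under an alternative kept their side of the threshold or stayed within 1.5 times, 10 lost a call, 4 gained one and 4 counts moved by more. Among the other genes of the lists and Cxcr2, 38 calls were lost under an alternative, 2 were gained and 858 results kept their side. The S100a4 log2 fold change lost its call with upper-quartile normalization (1.30), total-count scaling (1.34) and the covariate for pairs outside genes (1.83), and with each library left out it lay between 0.91 and 1.70. The S100a10 log2 fold change passed without a filter (1.14) and with the monocyte covariate (0.82), and lay between 0.70 and 1.5 with each library left out, passing without Cxcr2-/- replicate 1 (1.40, adjusted p = 0.0440) or 2 (1.47, adjusted p = 0.0231). With the covariate for pairs outside genes, 1502 genes were called higher and 1341 lower, against 2628 and 2628, and 2 of the receptor, partner and regulator genes (against 7) and 3 of the EF-hand genes (against 13) were higher. The causes were not tested.

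With the replicate number as a block, the log2 fold change of S100a4 was 1.19 (adjusted p = 0.110, edgeR), 2470 genes were called higher and 2518 lower, and S100a8, S100a9, S100a6 and S100a13 still passed. Correlations of the deviations of same-numbered libraries were 0.19, -0.10, 0.37 and -0.29, so the numbers were not taken as pairs. S100a4 was removed by a minimum of 10 counts per library. Low counts limit S100a4 most, with as few as 6 in a library, and the cause of these low counts was not tested.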

Other observations

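S100pbp, whose name refers to S100P binding and which is no member of the family, was examined after its values were seen. It fell from 27.2 ± 3.21 CPM in WT to 12.4 ± 0.944 CPM in Cxcr2-/- neutrophils (n = 4 each) without overlap, a log2 fold change of -1.13 (adjusted p = 6.68e-06, edgeR with Benjamini-Hochberg adjustment).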
